A study of Mus musculus with 4 samples.

Results

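Cortical interneurons are told apart by a small set of neuropeptides, calcium-binding proteins and a nitric oxide synthase, and 10 such genes were examined here in bulk RNA-seq libraries of ES-derived neurons. They were picked by symbol and comprise the peptide genes Sst, Cort, Npy, Vip, Cck and Tac1, the calcium-binding protein genes Pvalb, Calb1 and Calb2, and the enzyme gene Nos1. Each of the 10 was listed among the 34968 gene symbols shared by the 4 libraries. Of them, 7 passed the filter of at least 1 TPM (transcript abundance scaled to transcript length and library total) in at least 2 libraries and were tested among 12975 genes, while Vip, Cort and Pvalb did not pass.

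The libraries came from a pair of mouse ES cell lines of strain C57/BL6 that share the parental line Dlx6-Cre; Ai9, as the labels write it, with the driver named Dlx6a-Cre in the study's methods, in which a Cre active in forebrain GABAergic neurons switches on tdTomato. Both lines also carry a Nestin-Nkx2-1-IRES-tTA2S transgene, so that Nkx2-1 and a tetracycline transactivator are made under a Nestin promoter, which is used by neural progenitors. The transactivator drives TRE-Dlx2 in the N/D line and TRE-Dlx2-St18 in the N/D/S line, and St18 is thus the factor by which the lines differ in their labels. Embryoid bodies of both lines were treated with the Wnt inhibitor XAV-939 and then the Sonic hedgehog agonist SAG, and tdTomato+ neurons were sorted on day 12. Each line gave 2 libraries, numbered replicate 1 and replicate 2. ES colonies were clonally selected, and how many clones stand behind the libraries was not given in the sources used here. Nor was it stated whether the replicates were separate differentiations, so p-values measure only the spread between these samples.

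The comparison of N/D/S with N/D asks whether neurons given St18 carry other amounts of the subtype transcripts. Directions rest on the labels, because St18 itself did not separate the lines in these tables. St18 stood at 28.5 TPM under the label N/D replicate 1, 26.6 TPM under N/D replicate 2, 44.4 TPM under N/D/S replicate 1 and 15.9 TPM under N/D/S replicate 2. The sources used here do not say if the introduced St18 counts towards that symbol, and an exchange of labels was not tested. The library labelled N/D replicate 1 stood apart, since it listed 0 for 613 of the 6139 genes that reached 10 TPM in all 3 others, against at most 2 such genes in any other library. Polr2a, the largest subunit of RNA polymerase II, was at 0.00239 TPM in that library and at 4.98 to 17.4 TPM in the others, so a value of 0 there is given as listed and not as absence. Of the 7 tested members, Tac1 and Cck were listed at 0 in that library, as were 26.1% of the genes tested. Read counts cannot be had from TPM, so depth and counting intervals are unknown. TPM are scaled to transcript length, and levels of different genes are compared below on that scale within a library. In bulk samples, fewer cells of a type and less RNA per cell cannot be told apart.

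Cortical and striatal interneurons arise largely in the ganglionic eminences, and those of the medial eminence give rise to Sst and Pvalb classes, while Vip, Cck and many Calb2 cells trace mainly to the caudal eminence. Peptide genes such as Sst and Npy can be transcribed early in the life of an interneuron, whereas Pvalb rises late, after birth. The peptides are cut from precursors, stored in dense-core vesicles and released to act on G protein-coupled receptors, while the calcium-binding proteins buffer calcium inside the cell and the enzyme made by Nos1 produces nitric oxide.

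Sst and Cort are related genes, and their shared stretch is shown because TPM of similar genes can trade reads. On GRCm38 with GENCODE M21, Sst (ENSMUSG00000004366.4) lies at chr16:23889573-23890958 and Cort (ENSMUSG00000028971.4) at chr4:149125034-149126763, both on the minus strand. The stretch lies in exon 2 of 2 in both genes, at chr16:23889732-23889770 and chr4:149125270-149125308. It spans coding bases 310 to 348 of 348 in Sst and 286 to 324 of 327 in Cort, and codes for the part of each precursor from which the cyclic peptide is cut. Capitals mark the bases that differ between the genes, read 5′ to 3′ on the coding strand.
Sst: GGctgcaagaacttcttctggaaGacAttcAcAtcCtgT
Cort: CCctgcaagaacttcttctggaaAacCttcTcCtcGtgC
Of 39 bases 31 were identical (79.5%), and the longest identical run was 21 bases. None of the 691 words of 31 bases in the Sst transcript occurred in a transcript of another gene, and none of the 647 of Cort did, so the genes could be told apart by words of that length, the default of kallisto.

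The promoters of the peptide genes are shown because Sst is a textbook target of the cAMP response element, whose full form is TGACGTCA and whose 5-base core is TGACG. Stretches of at most 30 bases were taken from RefSeq promoter sequences on GRCm38.p6, in which 8 of the 10 genes were matched, Calb1 and Calb2 not being among them. They are read 5′ to 3′ on the strand of the gene, and capitals mark the full element or the core on either strand, where the core on the other strand reads CGTCA.
Sst, chr16:23890874-23890903, minus strand: gcctccttggcTGACGTCAgagagagagtt
Cort, chr4:149126765-149126793, minus strand: ctccggcttgtgCGTCAccgcgtgagtgt
Vip, chr10:5639127-5639155, plus strand: ggatcactactgTGACGtctttcggggag
Cck, chr9:121495725-121495753, minus strand: cctgctggactgCGTCAgcactgggtaaa
Tac1, chr6:7555006-7555034, plus strand: gctctacaggctCGTCAcgcctgagataa
The match began 48 bases before the RefSeq start in Sst, 18 in Cort, 79 in Vip, 47 in Cck and 43 in Tac1. GENCODE M21 places the starts of Sst and Tac1 further upstream, so that their stretches lie inside the gene as that annotation draws it. Within 120 bases before the start, 5 of the 6 peptide genes held the core, against 11.7% of 32851 promoters, and the full element stood in Sst and in 1.24% of promoters. The full element contains the core on both strands. Npy had no match to these letters in that window.

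Sst and Npy were the most abundant of the 10 genes in each library. Sst, which codes for the inhibitory peptide somatostatin, was at 277 TPM in N/D replicate 1 and 421 TPM in N/D replicate 2, and at 444 TPM in N/D/S replicate 1 and 224 TPM in N/D/S replicate 2. The N/D/S libraries held both the highest and the lowest value, so the lines overlapped. The mean was 349 ± 102 TPM (SD, n = 2) in N/D and 334 ± 155 TPM (SD, n = 2) in N/D/S. Sst lay between the 94.9th and the 98.3rd percentile of the genes above 0 in its library. Its log2 fold change, N/D/S relative to N/D on the log2(TPM + 1) scale, was −0.11 (limma, standard error 1.00, 95% interval −2.48 to 2.25, unadjusted p = 0.912, adjusted p = 1, Benjamini-Hochberg). The interval leaves room for changes of more than 4-fold in either direction.

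Npy, at chr6:49822710-49829507 on the plus strand, codes for neuropeptide Y, which many Sst cells and neurogliaform cells carry. It was at 434 and 228 TPM in N/D, in replicate order, and at 554 and 148 TPM in N/D/S. Both replicate 1 libraries stood above both replicate 2 libraries, and the lines overlapped. The mean was 331 ± 146 TPM (SD, n = 2) in N/D and 351 ± 287 TPM (SD, n = 2) in N/D/S. The log2 fold change was −0.13 (limma, standard error 1.11, 95% interval −2.75 to 2.49, unadjusted p = 0.909, adjusted p = 1), smaller than its residual standard deviation between libraries of a line, 1.05. The order of the mean TPM and the sign of the fold change differed for Npy, as the latter rests on means of logarithms.

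Tac1, at chr6:7554879-7565834 on the plus strand, codes for the precursor of substance P and neurokinin A. It was listed at 0 in N/D replicate 1 and was at 14.9 TPM in N/D replicate 2, 33.5 TPM in N/D/S replicate 1 and 15.5 TPM in N/D/S replicate 2. Tac1 was the only tested member whose lines did not overlap, with N/D/S higher. The lines did not overlap in 16.9% of the 12975 genes tested, 8.69% with N/D/S higher and 8.23% with N/D/S lower. N/D/S replicate 2 exceeded N/D replicate 2 by 0.06 on the log2(TPM + 1) scale. The log2 fold change was 2.58 (limma, standard error 1.46, 95% interval −0.86 to 6.03, unadjusted p = 0.119, adjusted p = 1), rank 193 by p among the genes tested. It rested on the 0 in N/D replicate 1, since it was 0.59 without that library. Without N/D replicate 2, where that 0 alone stands for N/D, it was 4.58 and passed the threshold (adjusted p = 0.00141, limma). With the 4 libraries kept it was 4.23 with a pseudocount of 0.1 in place of 1. Without N/D replicate 1 the Tac1 lines still did not overlap, as held for 13.3% of genes with N/D/S higher and 31.9% with N/D/S lower.

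Cck, Vip and Cort were low, at most 4.17 TPM in any library. Cck, the precursor of cholecystokinin at chr9:121489824-121495694 on the minus strand, was listed at 0 in N/D replicate 1 and was at 1.87 TPM in N/D replicate 2, 0.102 TPM in N/D/S replicate 1 and 4.17 TPM in N/D/S replicate 2. Both replicate 2 libraries were the higher ones. Its log2 fold change was 0.49 (limma, standard error 1.20, 95% interval −2.33 to 3.32, unadjusted p = 0.692, adjusted p = 1), and it was −0.27 without N/D replicate 1.

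Vip, at chr10:5639218-5647617 on the plus strand, codes for vasoactive intestinal peptide and marks interneurons that inhibit other interneurons. It was listed at 0 in N/D replicate 1 and was at 0.874 TPM in N/D replicate 2, 0.659 TPM in N/D/S replicate 1 and 2.39 TPM in N/D/S replicate 2. Cort, which codes for cortistatin, was listed at 0 in N/D replicate 1 and was at 1.96 TPM in N/D replicate 2, 0.982 TPM in N/D/S replicate 1 and 0.904 TPM in N/D/S replicate 2. In both genes a single library reached 1 TPM, so neither was tested. In the libraries where it was above 0, Cort amounted to between 0.00221 and 0.00465 of the Sst level.

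Of the calcium-binding protein genes, Calb1 and Calb2 were present in each library and Pvalb was close to absent from the tables. Calb1, at chr4:15881264-15908064 on the plus strand, codes for calbindin. It was at 40.9 and 55.3 TPM in N/D and at 88.3 and 35.3 TPM in N/D/S, in replicate order. The N/D values lay between the N/D/S values, with means of 48.1 ± 10.2 TPM (SD, n = 2) in N/D and 61.8 ± 37.5 TPM (SD, n = 2) in N/D/S. The log2 fold change was 0.23 (limma, standard error 1.02, 95% interval −2.18 to 2.64, unadjusted p = 0.828, adjusted p = 1).

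Calb2, at chr8:110137502-110168210 on the minus strand, codes for calretinin. It was at 115 and 35.4 TPM in N/D and at 92.9 and 12.9 TPM in N/D/S, in replicate order. N/D/S was the lower line within each replicate number, as for 17.9% of genes tested, but the difference between the numbers exceeded that between the lines, so the lines overlapped. The mean was 75.4 ± 56.6 TPM (SD, n = 2) in N/D and 52.9 ± 56.6 TPM (SD, n = 2) in N/D/S. Its log2 fold change was −0.85 (limma, standard error 1.28, 95% interval −3.88 to 2.19, unadjusted p = 0.530, adjusted p = 1).

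Pvalb, at chr15:78191114-78206400 on the minus strand, codes for parvalbumin, the marker of fast-spiking interneurons and of many pallidal projection neurons. It was at 0.249 TPM in N/D replicate 2 and listed at 0 in the other 3 libraries, and no fold change is given.

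Nos1, at chr5:117781032-117958840 on the plus strand, codes for the neuronal nitric oxide synthase. It was at 1.18 and 0.163 TPM in N/D and at 5.69 and 0.00447 TPM in N/D/S, in replicate order. Both replicate 1 libraries were the higher ones, and N/D/S replicate 1 held the highest and N/D/S replicate 2 the lowest value. The log2 fold change was 0.70 (limma, standard error 1.23, 95% interval −2.19 to 3.60, unadjusted p = 0.585, adjusted p = 1). The antisense gene Gm26995 overlaps Nos1, and 261 of the 11162 words of 31 bases in Nos1 transcripts (2.34%) also occur in transcripts of other genes, 217 of them in Gm26995. Whether the counting used strand was not given in the sources used here, so part of these low values cannot be told apart from Gm26995.

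**Figure D1:**
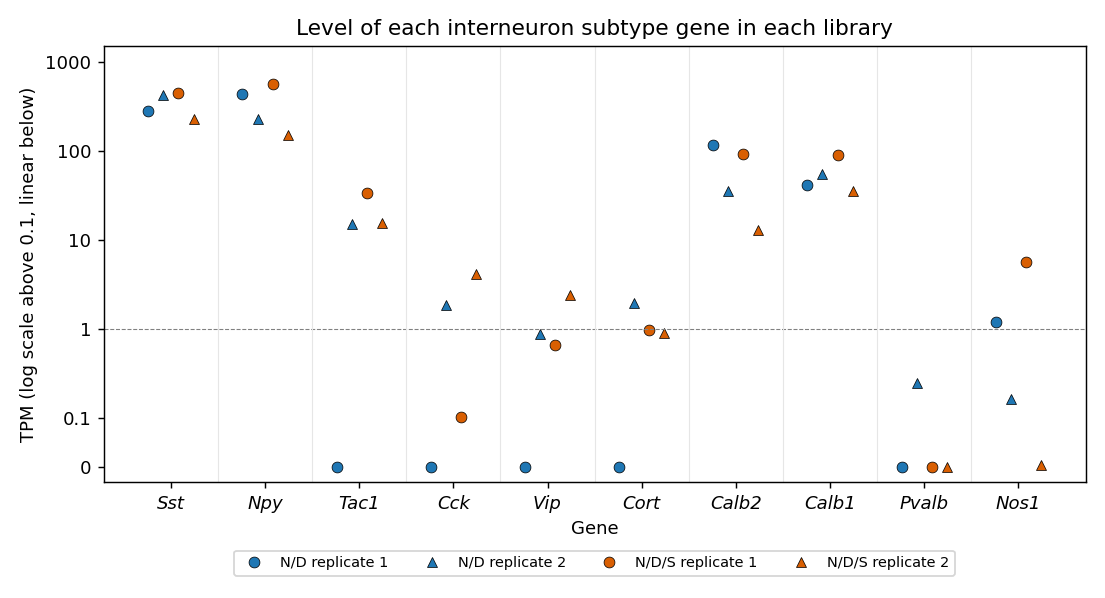
The TPM of each of the 10 genes (horizontal axis) is plotted for each library, on a vertical axis that is logarithmic above 0.1 TPM and linear below it, with circles for replicate 1, triangles for replicate 2, blue for N/D and orange for N/D/S, and the dashed line at 1 TPM. Sst and Npy lie between 148 and 554 TPM, Calb1 and Calb2 between 12.9 and 115 TPM, and N/D replicate 1 is listed at 0 for Tac1, Cck, Vip, Cort and Pvalb.

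The order of the levels was not the same in each library. Sst and Npy together made up 81.8% to 85.4% of the summed TPM of the 10 genes, which was 869 TPM in N/D replicate 1, 760 TPM in N/D replicate 2, 1221 TPM in N/D/S replicate 1 and 444 TPM in N/D/S replicate 2. Sst and Npy changed places between the libraries, as did Calb2 and Calb1 below them, and neither pair can be ordered beyond the spread between libraries. Tac1 stood next in N/D replicate 2 and N/D/S replicate 1, whereas N/D/S replicate 2 had it above Calb2 and N/D replicate 1 listed it at 0, below Nos1. Nos1, Cck, Vip and Cort shared the range up to 5.69 TPM in no fixed order, and Pvalb was at most 0.249 TPM.

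Between the lines, none of the 7 tested members passed the threshold of an adjusted p of 0.05 in limma, and neither did any of the 12975 genes tested (0%). At an unadjusted p under 0.05, limma called no member, and it called 8 genes in all (0.0617%), 3 of them higher in N/D/S (0.0231%) and 5 lower (0.0385%). The median standard error over all genes tested was 1.10 on the log2 scale, so the design could resolve only large changes. With 2 libraries against 2, a two-sided exact permutation test cannot give a p below 0.333. Of the members tested, Cck, Tac1, Calb1 and Nos1 had a fold change above 0 and Sst, Npy and Calb2 had one below 0, while over all genes tested 61.4% had a fold change above 0 and the median was 0.26. Leaving out a library turned the sign for 6 of these 7 members, Tac1 being the exception, which was also the member that passed the adjusted threshold when N/D replicate 2 was left out.

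**Figure D2:**
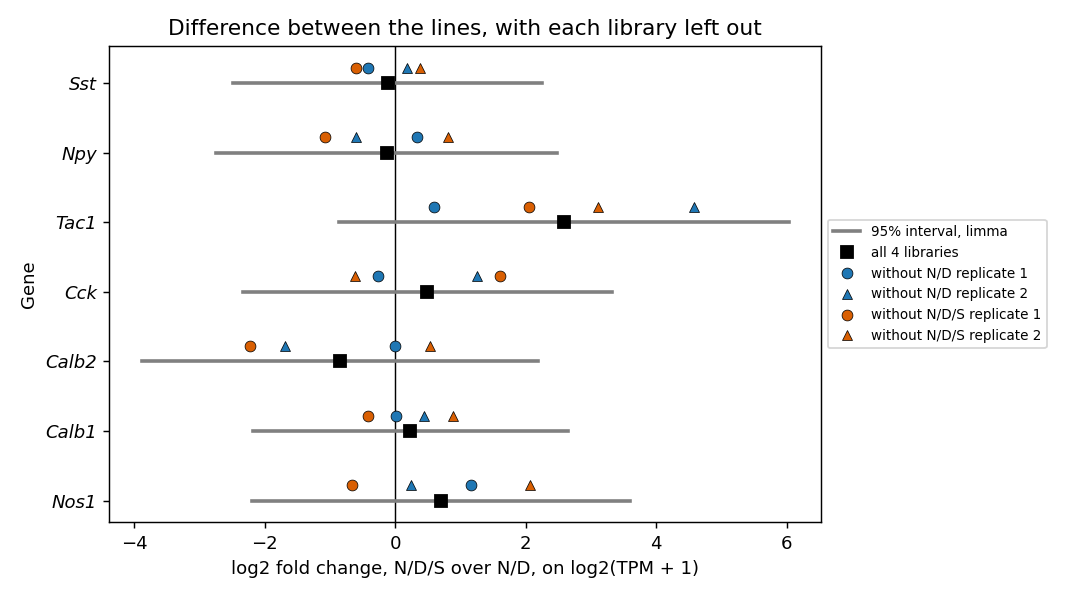
The log2 fold change, N/D/S relative to N/D on the log2(TPM + 1) scale (horizontal axis), is shown for the 7 tested members, with black squares and grey bars for the limma value and its 95% interval from the 4 libraries, and coloured symbols for the value when the library of that symbol is left out. Each interval includes 0, and the values with a library left out fall on both sides of 0 except for Tac1, where they run from 0.59 to 4.58.

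Several members differed more by replicate number than by line. Npy, Calb2 and Nos1, 3 of the 7 tested, had both replicate 1 libraries above both replicate 2 libraries, as did 14.8% of genes tested. Cck had both replicate 2 libraries above, as did 14.7% of genes tested, and the untested Vip had the same order. In a limma model with the line as a block, Calb2 was lower in replicate 2 by a log2 difference of −2.22 (standard error 1.28, unadjusted p = 0.122), Nos1 by −1.82 (standard error 1.30, unadjusted p = 0.2004) and Npy by −1.41 (standard error 1.27, unadjusted p = 0.301), each with an adjusted p of 1. In that limma model Cck was higher in replicate 2, by a log2 difference of 1.875 (standard error 1.269, unadjusted p = 0.179). The same model called no gene at an adjusted p of 0.05 and 1.03% of genes at an unadjusted p under 0.05.

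The ratio of one member to another within a library does not depend on the scaling of that library. The ratio of Npy to Sst was 1.56 in N/D replicate 1 and 1.25 in N/D/S replicate 1, against 0.540 in N/D replicate 2 and 0.661 in N/D/S replicate 2. Npy was thus the more abundant of the pair in the replicate 1 libraries and Sst in the replicate 2 libraries, in both lines. The ratio of Calb2 to Calb1 was 2.82 and 1.05 in N/D replicate 1 and N/D/S replicate 1, and 0.640 and 0.367 in their replicate 2 counterparts, again with an exchange of order by number. The ratio of Calb1 to Sst had a narrower range, from 0.131 to 0.199.

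Markers of some other cells moved with the replicate number as well. The summed TPM of 6 pluripotency markers was 0.247 in N/D replicate 1 and 3.76 in N/D/S replicate 1, against 194 in N/D replicate 2 and 329 in N/D/S replicate 2. The 5 of them that were tested were higher in both replicate 2 libraries, as were 14.7% of all genes tested. Of these 5, 4 were listed at 0 in N/D replicate 1. Dppa5a, a gene of pluripotent cells, was at 164 and 266 TPM in the replicate 2 libraries, while Nanog was at 3.04 and 1.96 TPM there. For 11 astrocyte and oligodendrocyte markers the sum was 5.39 and 25.3 TPM in N/D replicate 1 and N/D/S replicate 1, against 235 and 94.9 TPM in their replicate 2 counterparts. Each of the 9 tested was higher in replicate 2, and 7 of them were listed at 0 in N/D replicate 1. Gfap was listed at 0 in both replicate 1 libraries, and Aqp4 in each library but N/D replicate 2. Mesenchymal and endothelial markers did not follow the number. Their sum was 38.8 and 13.5 TPM in N/D replicate 1 and N/D/S replicate 1, and 34.2 and 30.8 TPM in their replicate 2 counterparts. Of the 4 tested, 2 were higher in both replicate 2 libraries. Hbb-bs and Hba-a1, which code for globin chains and have near-identical copies that share reads, were at 14.2 to 31.7 TPM in the replicate 2 libraries and at most 0.141 TPM in the replicate 1 libraries. Of 9 glutamatergic markers 6 were below 1 TPM in each library and 1 was tested, Slc17a6, a vesicular glutamate transporter. It ran the other way, at 13.8 TPM in N/D replicate 1 and 18.4 TPM in N/D/S replicate 1 against 2.44 and 0.727 TPM in their replicate 2 counterparts. The part of these cells in the levels of Npy, Calb2, Nos1, Cck and Vip was not tested.

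**Figure D3:**
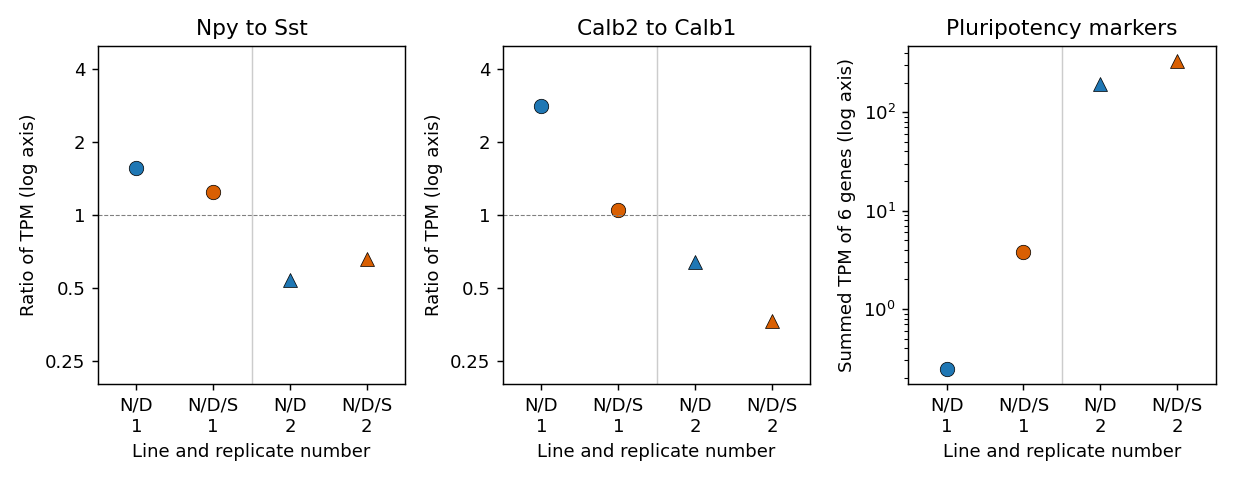
From left to right, the panels plot the ratio of Npy to Sst TPM, the ratio of Calb2 to Calb1 TPM and the summed TPM of 6 pluripotency markers, each on a logarithmic axis, for the 4 libraries ordered by replicate number (circles 1, triangles 2, blue N/D, orange N/D/S). Both ratios lie above 1 in the replicate 1 libraries and below 1 in the replicate 2 libraries, and the marker sum is at most 3.76 TPM in the former and at least 194 TPM in the latter.

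The tdTomato sort selects neurons that have used this Cre, and the markers of neurons and GABAergic cells were above 0 in each library. The summed TPM of 8 neuron markers ranged from 3311 to 5087 and that of 8 GABAergic markers from 592 to 1432, against at most 19.4 for the glutamatergic markers. The GABAergic list includes Dlx2, which both lines carry as a transgene, at 71.1 to 259 TPM. It also includes Dlx1, at 97.9 to 520 TPM, so its sum rests in large part on Dlx genes. Whether the introduced Dlx2 counts towards that symbol was not given in the sources used here. Slc32a1, the vesicular GABA transporter, was the lowest of the GABAergic markers, at 1.55 TPM in N/D replicate 1 and at most 13.9 TPM in the others. Progenitor and cell cycle markers summed to 489 to 1227 TPM, of which Fabp7, a gene of radial glia, made up 134 to 906 TPM. Of the 9 tested, 7 had a fold change below 0, as did 7 of the 8 neuron markers and 38.6% of all genes tested. Hes5 went the other way, by a log2 fold change of 3.77 (limma, standard error 1.55, unadjusted p = 0.0446). It was at 0 and 22.6 TPM in N/D and 61.8 and 69.2 TPM in N/D/S, in replicate order. None of these markers passed the adjusted threshold. Gad1, which codes for the larger glutamate decarboxylase, was at 27.4 to 97.8 TPM. Sst stood above Gad1 in each library, by a ratio from 4.31 in N/D replicate 2 to 10.1 in N/D replicate 1. Lhx6, the factor by which Sst and Pvalb interneurons of the medial eminence are known, was at 30.8 and 74.9 TPM in N/D and 115 and 33.0 TPM in N/D/S, in replicate order.

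The TPM were deposited without scaling between libraries, and scaling narrowed the spread of Sst more than that of Npy or Calb2. With median-of-ratios factors, Sst was at 325 and 336 scaled TPM in N/D and 327 and 265 in the N/D/S libraries, in replicate order. The residual standard deviation of Sst between libraries of a line fell from 0.576 to 0.153 on the log2 scale, which placed it at the 2.17th percentile of the genes tested. Calb1 was at 47.8, 44.0, 65.0 and 41.6 scaled TPM in N/D replicates 1 and 2 and N/D/S replicates 1 and 2, with a residual standard deviation of 0.321 in place of 0.684. Npy kept a residual standard deviation of 0.958 and Calb2 of 1.53, and the median gene had 0.955. With upper quartile factors the residual standard deviation of Sst was 0.228 and that of Calb1 was 0.343.

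**Figure D4:**
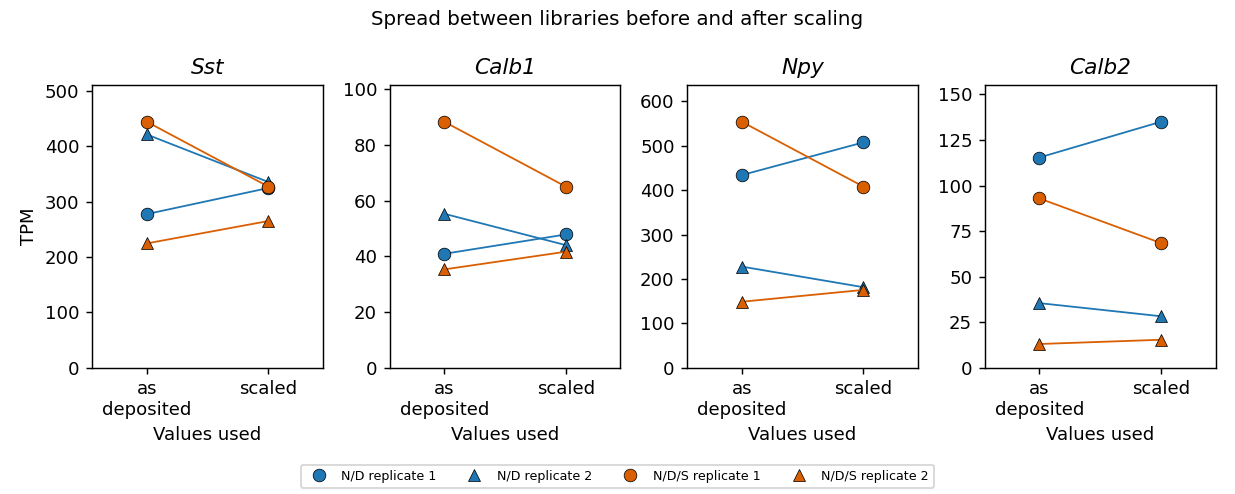
TPM of Sst, Calb1, Npy and Calb2 (vertical axes, from 0) are shown as deposited and after median-of-ratios scaling, with a line for each library (circles replicate 1, triangles replicate 2, blue N/D, orange N/D/S). The Sst values close up to between 265 and 336 scaled TPM, while Calb2 still runs from 15.3 to 135 scaled TPM.

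The genes whose levels followed those of Sst most closely were found by the distance between log2(TPM + 1) profiles over the 4 libraries, each centred on its own mean, among 7804 other genes with a mean of at least 10 TPM. They were Sae1 at a distance of 0.0379, E130308A19Rik at 0.0477 and Ykt6 at 0.0530. Sae1 was at 116 and 178 TPM in N/D and 188 and 91.6 TPM in N/D/S, in replicate order. With 4 points that share library and scaling such likeness is common, and 602 genes lay within a distance of 0.5 of Sst.

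The receptors of these peptides were scarce. Of 18 receptor genes 10 were below 1 TPM in each library, 4 of them (Sstr3, Npy6r, Vipr1 and Tacr2) listed at 0 throughout, and 15 were listed at 0 in N/D replicate 1. The 5 that were tested had 4 fold changes above 0 and 1 below, with a median of 0.55 beside 0.26 over all genes tested, and none passed the adjusted threshold or an unadjusted p under 0.05. Sstr2, a somatostatin receptor, had the highest mean, at 32.7 and 9.38 TPM in N/D and 6.80 and 3.24 TPM in N/D/S, in replicate order. Both N/D/S libraries of Sstr2 lay below both N/D libraries, with a log2 fold change of −1.70 (limma, standard error 1.08, unadjusted p = 0.160, adjusted p = 1). Of the 5 tested receptors 1 had that order, beside 8.23% of all genes tested. Sstr1 and Adcyap1r1 stood above Sstr2 in N/D/S replicate 1.

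Sstr1, a second somatostatin receptor, was listed at 0 in N/D replicate 1 and was at 7.26 TPM in N/D replicate 2, 11.8 TPM in N/D/S replicate 1 and 0.427 TPM in N/D/S replicate 2. Adcyap1r1, which binds the peptide PACAP more tightly than vasoactive intestinal peptide, was listed at 0 in N/D replicate 1 and was at 8.43, 7.69 and 0.396 TPM in the others, in the same order. Cckar, a cholecystokinin receptor, was at 0.0171 and 0.670 TPM in N/D and 1.59 and 1.37 TPM in N/D/S. It was the receptor gene with both N/D/S libraries higher, by a log2 fold change of 0.93 (limma, standard error 0.97, unadjusted p = 0.372, adjusted p = 1). That order was found in 1 of the 5 tested receptors, beside 8.69% of all genes tested.

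**Figure D5:**
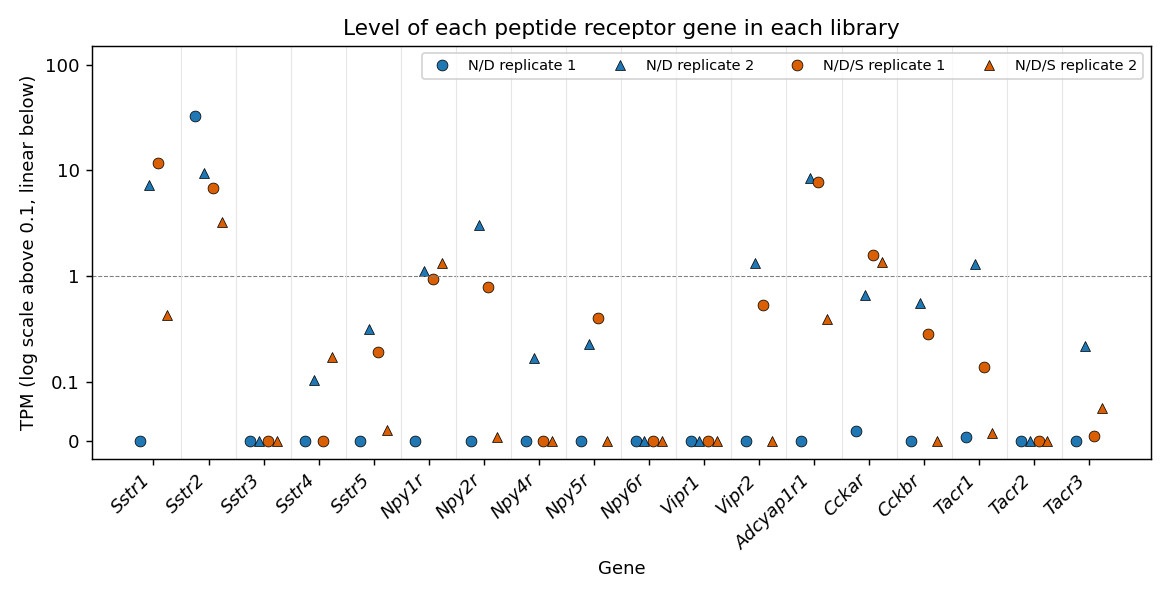
TPM of 18 receptor genes of the somatostatin, neuropeptide Y, vasoactive intestinal peptide, cholecystokinin and tachykinin families (horizontal axis) are plotted for each library, on an axis that is logarithmic above 0.1 TPM and linear below it, with the dashed line at 1 TPM and symbols as for the members. Sstr2 reaches 32.7 TPM in N/D replicate 1, where 15 of the 18 receptors are listed at 0.

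The 19 genes of peptide processing and dense-core vesicles all passed the filter, and 4 of them (Pcsk1, Pcsk5, Cpd and Qpct) were listed at 0 in N/D replicate 1. Of these 12 had a fold change above 0 and 7 below, with a median of 0.24, and none passed the adjusted threshold. Cpe, the carboxypeptidase that trims peptide ends, was at 478 and 875 TPM in N/D and 955 and 292 TPM in N/D/S, in replicate order. Scg5, a chaperone of prohormone convertase, held the tightest range of those named, at 345 and 401 TPM in N/D and 342 and 342 TPM in N/D/S. Pcsk1n, the precursor of a convertase inhibitor, was at 186 and 213 TPM in N/D and 139 and 417 TPM in N/D/S.

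Other calcium-binding genes showed how far Calb1 and Calb2 stood below the general sensors. Calm2, which codes for calmodulin, was at 1096 to 2087 TPM, and Calm3 at 287 to 706 TPM. Of 24 listed EF-hand sensor and buffer genes 22 were tested, 12 with a fold change above 0 and 10 below, and none passed the adjusted threshold. Efcab2 was at 25.3 and 9.85 TPM in N/D and 2.77 and 5.14 TPM in N/D/S, with a log2 fold change of −1.81 (limma, standard error 1.03, unadjusted p = 0.122, adjusted p = 1). Cabp7 was at 0.147 and 0.978 TPM in N/D and 2.58 and 1.23 TPM in N/D/S.

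In the nitric oxide pathway, 13 of 19 listed genes were tested, 8 with a fold change above 0 and 5 below, and none passed the adjusted threshold. Of these 13, 2 had both N/D/S libraries higher and 2 had both lower, beside 8.69% and 8.23% of all genes tested. Dynll1, a dynein light chain that also binds neuronal nitric oxide synthase, was at 933 and 1111 TPM in N/D and 945 and 1145 TPM in N/D/S. Nos1ap, the adaptor of the synthase, was at 34.2 and 11.8 TPM in N/D and 10.7 and 2.34 TPM in N/D/S, with both N/D/S libraries lower and a log2 fold change of −1.76 (limma, standard error 1.14, unadjusted p = 0.165, adjusted p = 1). Nos1ap was thus more abundant than Nos1 in each library. Nosip, which binds nitric oxide synthases, was at 43.2 and 64.4 TPM in N/D and 70.1 and 87.7 TPM in N/D/S, with both N/D/S libraries higher and a log2 fold change of 0.56 (limma, standard error 0.97, unadjusted p = 0.579, adjusted p = 1). Ddah2 was at 381 to 1061 TPM over the 4 libraries.

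Among 24 factors of interneuron subtypes 23 were tested, 16 with a fold change above 0 and 7 below, with a median of 0.29, and none passed the adjusted threshold. Dlx1 and Dlx5, which act in GABAergic precursors, were the most abundant, at 97.9 to 520 TPM and 136 to 206 TPM. Maf, a factor of Sst and Pvalb interneurons, was at 26.7 and 10.5 TPM in N/D and 7.47 and 1.35 TPM in N/D/S. Elfn1, a synaptic protein of Sst interneurons, was at 11.4 and 4.77 TPM in N/D and 2.42 and 0.492 TPM in N/D/S. Both had the N/D/S libraries below the N/D libraries, 2 of the 23 tested beside 8.23% of all genes tested, with log2 fold changes of −2.00 for Maf (standard error 1.13, unadjusted p = 0.119) and −1.90 for Elfn1 (standard error 1.05, unadjusted p = 0.112), each with an adjusted p of 1 from limma. In 1 factor, Cux2, named after its values were seen, the N/D/S libraries were the higher ones, at 13.0 and 8.56 TPM against 2.90 and 8.199 TPM in N/D. That is 1 of the 23 tested, beside 8.69% of all genes tested.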

How the data were processed

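Bulk RNA-seq of tdTomato+ neurons was analysed, 2 libraries per line. The authors deposited TPM per gene symbol and library. Per the submitters' processing notes, kallisto 0.44.0, sleuth and GRCm38 were used, and poly-A RNA was sequenced as paired ends. How transcripts were summed to symbols is not given in the sources used here. The replicate 1 and replicate 2 files list 203 and 210 symbols of their own, and 24 symbols turned into dates were left out.

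Differences were fitted with limma 3.58.1 in R 4.3.3 on log2(TPM + 1), without covariates, with Benjamini-Hochberg adjustment over the 12975 genes that reached 1 TPM in 2 or more libraries. The step was also run on simulated data as a check of the code, and no result given here rests on that run. Sleuth, the authors' tool, needs kallisto output and was not used here. Python 3.11.15 was used for tables and plots, with pandas 2.3.3, numpy 2.4.6, scipy 1.17.1 and matplotlib 3.10.9.

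The members and lists were chosen with earlier results of these data known. All members are named. From each list the 3 genes of highest mean TPM are named, and the 2 with the largest fold change among those not overlapping between the lines. Results for items withheld for evaluation are left out. Marker genes may be named as checks. Lhx6 and Gad1 are named as landmarks after their values were seen. Counts by replicate number and without N/D replicate 1 were likewise added after the values were seen. Alternatives were pseudocounts of 0.5 and 0.1, other filters, scaling by median-of-ratios, upper quartile and quantiles, a variance trend, a replicate block, and each library left out.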

Additional observations from a re-analysis of the deposited data

How the results depend on the processing

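With the 4 libraries kept, no alternative brought a tested member past the adjusted threshold, and the lowest adjusted p of a member was 0.999. Without N/D replicate 2, 1 member passed, Tac1 at 4.58 (adjusted p = 0.00141), whose remaining N/D library is listed at 0. Of 88 alternative fold changes 11 turned and the others kept their direction. With quantile normalization Npy turned to 0.0817 and Nos1 to −0.37, and the median over all genes tested went from 0.26 to −0.05. With at least 1 TPM in every library that median was −0.15. With a library left out, where a lone library is assumed to vary like the other line, the log2 fold change ran from −0.61 to 0.38 for Sst, −1.08 to 0.82 for Npy, 0.59 to 4.58 for Tac1, −0.62 to 1.61 for Cck, −0.42 to 0.88 for Calb1, −2.22 to 0.53 for Calb2 and −0.67 to 2.07 for Nos1. Over all genes, no gene passed in either direction in the fit reported, 5 higher and 1 lower passed with the variance trend, and 3 higher and 5 lower had an unadjusted p under 0.05. Left-out libraries gave 0 to 2213 higher and 0 to 160 lower genes. The 2213 and 160 arose without N/D replicate 2, and 2043 of the former were under 1 TPM in N/D replicate 1. That setting gave 1 to 5 calls in each of 9 context lists. With the replicate block limma called 0 genes at the adjusted threshold and 9 at an unadjusted p under 0.05, and it changed no call. Same-numbered libraries share a symbol list, but their deviations from the line means did not correlate (r = 0.0197 over genes), so they were not treated as pairs. The lowest unadjusted p of a member with the 4 libraries kept was 0.0320, for Tac1 with quantile normalization.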

Other observations

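Genes of other interneuron subtypes gave values that belong to no comparison above. Of 32 such genes 21 were tested, 11 with a fold change above 0 and 10 below, and none passed the adjusted threshold in limma. By replicate number, 5 of those tested had both replicate 1 libraries above both replicate 2 libraries and 6 had the reverse. Over all genes tested, these orders were found in 14.8% and 14.7%. Of the 21, 10 were listed at 0 in N/D replicate 1. Penk, the enkephalin precursor, was among the 6. It was listed at 0 in N/D replicate 1 and at 50.4 TPM in N/D replicate 2, 7.61 TPM in N/D/S replicate 1 and 35.7 TPM in N/D/S replicate 2. Th, which codes for tyrosine hydroxylase, was at 204 and 396 TPM in N/D replicate 1 and N/D/S replicate 1, and at 72.9 and 62.1 TPM in their replicate 2 counterparts. Lamp5, a marker of neurogliaform cells, was at 54.9 and 62.1 TPM in the replicate 1 libraries, at 0.561 TPM in N/D replicate 2 and listed at 0 in N/D/S replicate 2. Penk and Lamp5 were chosen after their values were seen. Sncg, known from Cck interneurons, was at 415 and 104 TPM in the replicate 1 libraries and 19.9 and 24.6 TPM in the replicate 2 libraries, in the same order of lines. Pnoc, the precursor of the peptide nociceptin, was at 105 and 53.6 TPM in N/D and 50.03 and 53.0 TPM in N/D/S, in replicate order.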
